A study of Mus musculus with 36 samples.

Results

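The RNA of 3 E protein genes (Tcf3, Tcf4 and Tcf12) and of 3 genes for their Id inhibitors (Id1, Id2 and Id3) was followed while mouse B cells were turned into macrophage-like cells by C/EBPα. The 6 genes were chosen by name from the 40354 genes in the count tables, and all 6 passed the low-count filter in each of the fits. Tcf3 fell within 1 hr of induction and went on falling, and Id2 rose. Both changes were larger in the early hours with either mutant of C/EBPα than with the wild-type factor, except that the Tcf3 difference for the R35K mutant stayed under the fold threshold.

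B cells from the bone marrow of C57BL/6J mice received a retrovirus with the construct C/EBPα-ER-hCD4, in which C/EBPα is fused to the estrogen receptor and human CD4 marks infected cells, and hCD4+ cells were enriched and grown with IL-7 on inactivated embryonic fibroblast (MEF) feeders. C/EBPα was wild type (WT) or had 1 arginine replaced by alanine (R35A) or by lysine (R35K), and estradiol (E2), which lets the fused factor enter the nucleus, was added together with IL-3, FLT-3, mCSF-1 and mSCF. Cells were collected before E2 (0 hr post induction, hpi) and at 1, 3, 6 and 18 hpi and again at 120 hpi, which gives 18 groups with 2 replicates each, and feeder cells were removed by letting them adhere to a dish. The labels call the cells B-cells at all times. The methods of the study call the replicates biological, and neither they nor the labels say whether those came from separate mice or infections, so the p-values measure the spread between these samples. Every group carried a construct, the 0 hpi groups included, so the effect of C/EBPα and those of E2, the added cytokines and time in culture cannot be told apart in a change from 0 hpi. The R35K values were deposited apart from those of WT and R35A cells. Where R35K cells are set beside the others, the construct and the data set cannot be told apart.

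E proteins are basic helix-loop-helix transcription factors that bind, as dimers, a short DNA element called the E box. Id proteins have the helix-loop-helix part but no DNA-binding region, so an E protein held by an Id protein does not bind its sites. In the bone marrow, Tcf3 is needed for the first steps of the B lineage, where it acts with Ebf1 and ahead of Pax5, whereas Tcf12 is best known from T cell precursors, Tcf4 from plasmacytoid dendritic cells, and Id2 from innate lymphoid cells and dendritic cells. Id1 and Id3 are known as direct targets of BMP and SMAD signalling.

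The genes other than Tcf4 lie in mm10 at chr10:80409514-80433647 (Tcf3, minus strand), chr9:71842688-72111871 (Tcf12, minus), chr2:152736251-152737410 (Id1, plus), chr12:25093799-25097140 (Id2, minus) and chr4:136143497-136145755 (Id3, plus). The reads were counted over the whole gene, so splice forms are not separated. Because Tcf3 and Id2 are the 2 members that moved most, the part of their promoters that lies upstream of the RefSeq start and outside annotated exons is shown, 5′ to 3′ on the strand of the gene, with the E box in capitals. The Tcf3 stretch spans chr10:80433648-80433885 and the Id2 stretch chr12:25096254-25096342, which lies in an intron of a longer Id2 transcript (RefSeq, GRCm38.p6).
Tcf3: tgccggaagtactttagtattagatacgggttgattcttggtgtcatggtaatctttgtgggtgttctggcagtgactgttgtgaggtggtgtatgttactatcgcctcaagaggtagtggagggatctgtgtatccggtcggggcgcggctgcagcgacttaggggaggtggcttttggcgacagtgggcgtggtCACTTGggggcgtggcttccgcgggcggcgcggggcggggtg
Id2: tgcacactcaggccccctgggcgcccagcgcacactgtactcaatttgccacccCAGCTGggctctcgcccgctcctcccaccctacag
The Tcf3 stretch of 238 bases held 1 E box (letters CANNTG, searched on both strands), 54 bases upstream of the start, and the Id2 stretch of 89 bases held 1, at 196 bases upstream. Neither held the letters TTNNGCAA, a core of C/EBP sites, or GAGGAA, a core of PU.1 sites. Over 32851 RefSeq promoters, windows at the same place held an E box in 64.7% of cases for the Tcf3 window and 33.0% for the Id2 window, TTNNGCAA in 9.25% and 3.68%, and GAGGAA in 22.1% and 9.05%.

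The libraries held 13044456 to 23131776 counts on genes, with a median of 15471229.5. The labelled cell type was checked with 5 B cell markers, whose summed level lay between 2202 and 2444 CPM (counts per 1000000 reads on genes, with TMM scaling over all 36 libraries) at 0 hpi, between 150.8 and 1005 CPM at 1 to 18 hpi and between 61.9 and 137 CPM at 120 hpi, while 6 macrophage markers went from 45.5 to 52.4 CPM at 0 hpi to 17150 to 28240 CPM at 120 hpi. RNA of fibroblasts was present as well. The 8 fibroblast markers (Col1a1, Col1a2, Col3a1, Sparc, Dcn, Lum, Postn and Pdgfrb) summed to 1914 to 2085 CPM at 0 hpi, to 3587 to 4792 CPM in WT, 3210 to 3728 CPM in R35A and 2403 to 2974 CPM in R35K cells at 1 to 18 hpi, and to 159 to 579 CPM at 120 hpi, when Lum had 0 counts in both replicates of each construct. Markers of T cells, NK cells and erythroid cells summed to at most 0.252, 1.33 and 0.464 CPM in any library. The plasmacytoid dendritic cell list (Siglech, Klk1 and Ly6d) lay between 45.9 and 60.5 CPM at 0 hpi and at most at 10.1 CPM later, and nearly all of the sum at 0 hpi was Ly6d, which early B lineage cells also express (mean of 59.8 CPM in WT cells, against 0.418 CPM for Siglech and 0 counts for Klk1). In such bulk samples, fewer cells of a type and less RNA per cell cannot be told apart.

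Tcf3 was the only member that fell by 1.5-fold or more in every comparison with 0 hpi. In WT cells it stood at 377 and 404 CPM in the 2 replicates at 0 hpi, 193 and 191 CPM at 1 hpi, 203 and 212 CPM at 3 hpi, 174 and 182 CPM at 6 hpi, 99.9 and 101 CPM at 18 hpi, and 62.8 and 56.9 CPM at 120 hpi. In R35A cells the values were 355 and 365 CPM, then 119 and 114 CPM, 117 and 121 CPM, 114 and 118 CPM, 92.9 and 95.0 CPM, and 66.0 and 57.9 CPM at the same times. In R35K cells they were 379 and 398 CPM, then 140 and 134 CPM, 148 and 151 CPM, 140.5 and 131 CPM, 101 and 103 CPM, and 55.8 and 48.7 CPM. At 1, 3 and 6 hpi each R35A library lay below each R35K library, and each of those below each WT library, and at 18 hpi all 6 libraries lay between 92.9 and 103 CPM. With edgeR's quasi-likelihood test, in which a change was called at 1.5-fold or more with an adjusted p (Benjamini-Hochberg) of at most 0.05, Tcf3 fell by 1.00 on the log2 scale (SE 0.0389, adjusted p = 1.04e-27) in WT cells at 1 hpi, by 1.65 (SE 0.0404, adjusted p = 4.38e-37) in R35A cells and by 1.56 (SE 0.0452, adjusted p = 2.32e-25) in R35K cells. With 2 replicates against 2, an exact permutation test of 1 gene alone cannot give a p below 0.333, so the calls rest on the fit across all genes. At 120 hpi the fall from 0 hpi had reached 7.12-fold in WT, 6.33-fold in R35A and 7.97-fold in R35K cells. Fitted folds can differ slightly from ratios of the levels, since each fit has its own scaling.

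The course of the Tcf3 loss differed in shape. Between 1 and 18 hpi Tcf3 fell by a further 0.96 (SE 0.0426, log2) in WT cells, a called change, and its difference was −0.30 (SE 0.0441) in R35A and −0.42 (SE 0.0483) in R35K cells, both under the fold threshold. Between 18 and 120 hpi it fell in all 3 constructs, by 0.87, 0.71 and 1.02 on the log2 scale. The R35A value became −0.58 without R35A 18 hpi replicate 2 and −0.51 without R35A 120 hpi replicate 2, and then missed the fold threshold. The B cell marker sum was lower along with Tcf3, and its part in the Tcf3 change was not tested.

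Tcf4 and Tcf12 changed less than Tcf3 and were first called at 18 or 120 hpi, but smaller changes that passed the adjusted p were there at 1 hpi, for Tcf12 in all constructs and for Tcf4 in the mutants (log2 −0.45 in R35A and −0.47 in R35K cells, against 0.07 in WT cells, which missed the adjusted p). Tcf4 lies at chr18:69343356-69689079 on the plus strand. In WT cells Tcf4 lay between 235 and 254 CPM in the 8 libraries of 0 to 6 hpi, then at 186 and 189 CPM at 18 hpi and at 156 and 155 CPM at 120 hpi, where it had fallen 1.67-fold (log2 −0.74, SE 0.0380, adjusted p = 9.23e-24). In R35A cells Tcf4 went from 235 and 223 CPM to 168 and 173 CPM at 1 hpi and to 147 and 148 CPM at 18 hpi, the first time at which its fall was called (log2 −0.65, SE 0.0364, adjusted p = 6.22e-22), and stood at 171 and 170 CPM at 120 hpi. In R35K cells it was called down at 18 hpi alone (log2 −0.69, SE 0.0447) and went from 149 and 154 CPM to 196 and 212 CPM at 120 hpi, a difference of 0.37 on the log2 scale from 18 hpi that stayed under the threshold. The R35A libraries of 1 to 18 hpi thus lay between 147 and 173 CPM, below every WT library of those times. The R35A call at 18 hpi was lost with limma on the deposited log2 values, where the change was −0.58. Without R35A 0 hpi replicate 2 the R35A changes at 6 hpi (−0.57) and 120 hpi (−0.55) became calls at −0.61 and −0.59, and without R35K 6 hpi replicate 2 the R35K change at 6 hpi (−0.54) became a call at −0.60.

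Tcf12 stayed within 1.5-fold of its 0 hpi level until 18 hpi. It lay between 242 and 251 CPM in the 6 libraries of 0 hpi and between 184 and 210.4 CPM in the 24 libraries of 1 to 18 hpi, a step that passed the adjusted p and missed 1.5-fold in each construct (log2 −0.22 in WT, −0.41 in R35A and −0.43 in R35K cells at 1 hpi). At 120 hpi it had fallen to 144 and 146 CPM in WT, 118 and 129.5 CPM in R35A and 126 and 131 CPM in R35K cells, 1.84-, 2.15- and 2.06-fold below 0 hpi. From 18 to 120 hpi the fall was 0.64 (SE 0.0398), 0.74 (SE 0.0399) and 0.68 (SE 0.0421) on the log2 scale, and each was called. The WT value shrank to between −0.50 and −0.52 when any 1 of the 4 WT libraries of 18 and 120 hpi was left out, and the R35A value to −0.56 without R35A 120 hpi replicate 1, each time below the threshold. From 18 to 120 hpi the fibroblast marker sum went from 4744 to 174 CPM in WT, 3215 to 567 CPM in R35A and 2412 to 447.5 CPM in R35K cells. Its part in the changes of Tcf12 and Tcf4 was not tested. Over all genes tested, the median log2 change from 0 hpi at 120 hpi was −0.36 in WT, −0.31 in R35A and −0.28 in R35K cells.

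**Figure D1:**
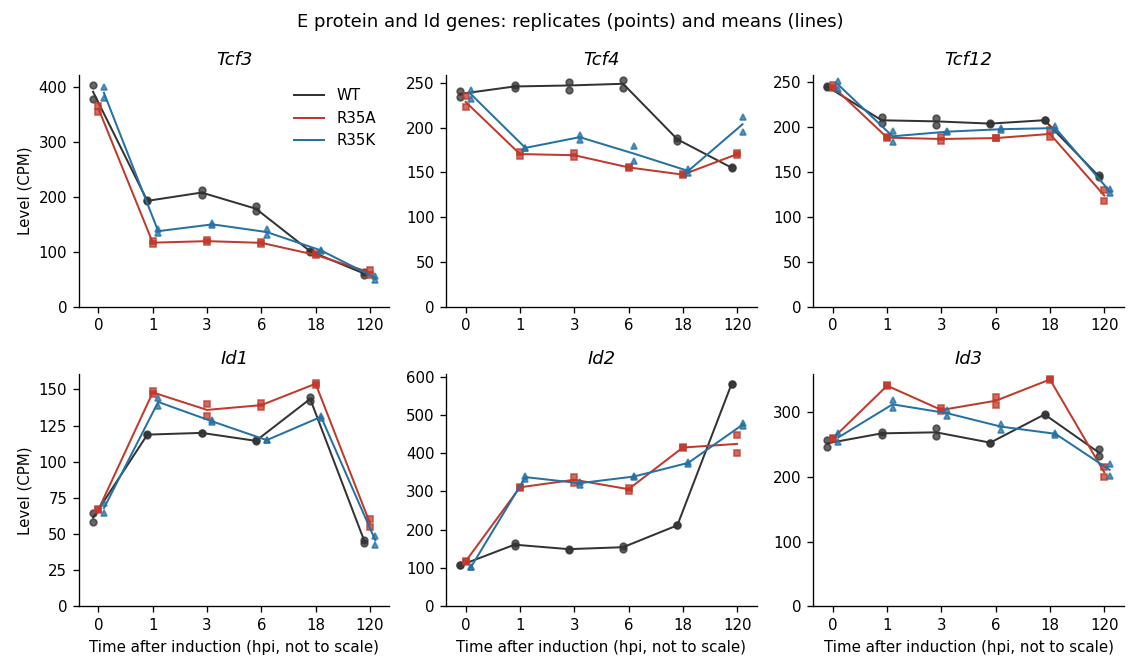
Levels of the 6 genes in CPM (vertical axes, from 0) at 0 to 120 hpi (horizontal axes, not to scale) for WT, R35A and R35K cells, with both replicates as points and their mean as a line. Tcf3 drops between 0 and 1 hpi in all constructs and further in the mutants, Id2 rises to between 302 and 341 CPM at 1 to 6 hpi in the mutants against 148 to 164 CPM in WT cells, and Id1 rises and returns.

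Among the inhibitors, Id2 showed the largest rise. In WT cells Id2 stood at 107 and 107 CPM at 0 hpi, 158 and 164 CPM at 1 hpi, 150.4 and 148 CPM at 3 hpi, 159 and 150.3 CPM at 6 hpi, 212 and 211 CPM at 18 hpi, and 582 and 581 CPM at 120 hpi. In R35A cells the values were 118 and 117 CPM, then 310 and 312 CPM, 339 and 322 CPM, 310 and 302 CPM, 416 and 413 CPM, and 448 and 401 CPM. In R35K cells they were 102 and 104 CPM, then 334 and 341 CPM, 326 and 318 CPM, 339 and 339 CPM, 376 and 373 CPM, and 470.0 and 479 CPM. Every mutant library of 1 to 18 hpi, from 302 to 416 CPM, lay above every WT library of those times, from 148 to 212 CPM, and at 120 hpi the order was turned around, with both WT libraries above all 4 mutant ones. The rise at 1 hpi was 1.53-fold in WT (log2 0.61, SE 0.0425, adjusted p = 8.57e-18), 2.60-fold in R35A (log2 1.38, SE 0.0403, adjusted p = 9.63e-34) and 3.16-fold in R35K cells (log2 1.66, SE 0.0383, adjusted p = 2.71e-28). In WT cells the changes of 0.48 at 3 hpi and 0.52 at 6 hpi were under the fold threshold, Id2 rose 1.98-fold at 18 hpi and 4.99-fold at 120 hpi, and 18 to 120 hpi alone brought a rise of 1.33 on the log2 scale (SE 0.0386). In the mutants the change from 18 to 120 hpi was −0.07 in R35A and 0.28 in R35K cells, neither of them called.

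Id1 rose and came back. In WT cells Id1 stood at 58.1 and 64.4 CPM at 0 hpi, 119 and 118 CPM at 1 hpi, 120 and 120 CPM at 3 hpi, 115 and 114 CPM at 6 hpi, 145 and 142 CPM at 18 hpi, and 45.8 and 44.0 CPM at 120 hpi. In R35A cells the values were 67.4 and 66.4 CPM, then 147 and 149 CPM, 140 and 132 CPM, 138 and 140 CPM, 155 and 153 CPM, and 60.1 and 55.1 CPM. In R35K cells they were 64.3 and 71.4 CPM, then 144 and 139 CPM, 127 and 129 CPM, 115 and 115 CPM, 132 and 130 CPM, and 48.5 and 42.6 CPM. All 24 libraries of 1 to 18 hpi, at 114 to 155 CPM, lay above all libraries of 0 and 120 hpi, at 42.6 to 71.4 CPM. Id1 rose 1.97-fold in WT (SE 0.0450 on the log2 scale, adjusted p = 1.01e-24 by edgeR with Benjamini-Hochberg adjustment), 2.17-fold in R35A and 2.01-fold in R35K cells at 1 hpi, and fell again from 18 to 120 hpi by 1.80, 1.52 and 1.58 on the log2 scale. Against 0 hpi its level at 120 hpi differed by −0.57 in WT and −0.34 in R35A cells, under the threshold, though the WT value became a call with no low-count filter (−0.65) and without WT 0 hpi replicate 1 (−0.63). It differed by −0.67 (SE 0.0584) in R35K cells, a call that was lost in the DESeq2 Wald test (−0.54), with DESeq2's size factors (−0.54), in the fit of all 36 libraries (−0.57), with limma (−0.58) and without R35K 120 hpi replicate 2 (−0.50).

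Like Id1, the fibroblast marker sum was higher at 1 to 18 hpi than at 0 hpi and lower at 120 hpi in each construct, but the steps between 1 and 18 hpi were not all in the same direction. Its mean went from 1941 CPM at 0 hpi to 3590 CPM at 1 hpi, 4744 CPM at 18 hpi and 174 CPM at 120 hpi in WT cells, from 2062 to 3720, 3215 and 567 CPM in R35A cells, and from 1984 to 2925, 2412 and 447 CPM in R35K cells. In WT cells the sum went on to 4392 CPM at 6 hpi while the mean of Id1 went from 119 to 114 CPM, and in R35A cells between 1 and 18 hpi the sum was lower at the end while Id1 went from 148 to 154 CPM. At 18 hpi, when the sum was 4744 CPM in WT and 2412 CPM in R35K cells, Id1 stood at 143 and 131 CPM. The markers did not all move with their sum. In WT cells from 1 to 6 hpi Col3a1 (464 to 361 CPM), Dcn (65.3 to 57.55 CPM) and Lum (5.89 to 3.57 CPM) went down, and the other markers went up. At 18 hpi Dcn stood at 39.2 CPM in WT, 133 CPM in R35A and 48.15 CPM in R35K cells. Lum was also highest in R35A cells then, and the other markers were highest in WT cells. The part of fibroblast RNA in the Id1 change was not tested.

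**Figure D2:**
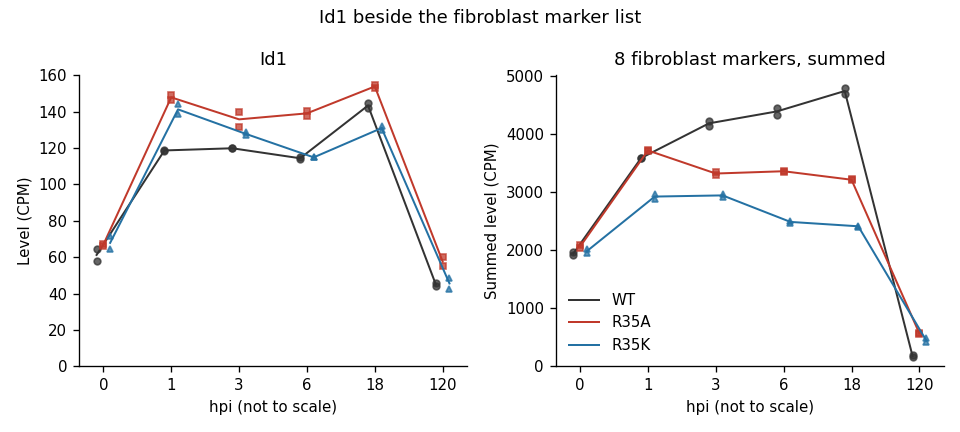
Id1 (left) and the sum of the 8 fibroblast markers (right), both in CPM from 0, by time after induction (not to scale), with the replicates of WT, R35A and R35K cells as points and means as lines. Both are higher at 1 to 18 hpi than at 0 hpi in each construct and lower at 120 hpi, and the marker sum keeps the constructs apart at 18 hpi (4744, 3215 and 2412 CPM) where Id1 lies between 130 and 155 CPM. Dcn and Lum, not shown singly, do not follow the order of the sum at 18 hpi.

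Id3 had the fewest calls of the 6. It ranged from 247 to 268 CPM at 0 hpi, from 253 to 297.5 CPM in WT, 302 to 351 CPM in R35A and 265 to 319 CPM in R35K cells at 1 to 18 hpi, and from 199.8 to 243 CPM at 120 hpi. Its fall from 18 to 120 hpi in R35A cells, from 351 and 351 CPM to 215 and 199.8 CPM (log2 −0.86, SE 0.0369, adjusted p = 5.23e-27), was its single called change over all comparisons, and the same step gave −0.44 in WT and −0.39 in R35K cells. In that step the fibroblast marker sum went from 3215 to 567 CPM in R35A, from 4744 to 174 CPM in WT and from 2412 to 447 CPM in R35K cells, and its part in the Id3 change was not tested.

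Id4, an inhibitor gene of the same family that is not among the 6, was read at low levels. It lay between 11.8 and 13.5 CPM at 0 hpi, rose 1.75-fold at 18 hpi in WT cells and at each of the times from 1 to 18 hpi in R35A cells, by 0.64 to 0.85 on the log2 scale, and had 0 or 1 count per library at 120 hpi. Against a floor of 3 counts in each library its fall from 0 hpi was then at least 45.1-fold in WT, at least 55.6-fold in R35A and at least 51.1-fold in R35K cells. The fibroblast marker sum given beside Id1 was likewise higher at 1 to 18 hpi and lower at 120 hpi, when the fibroblast marker Lum had 0 counts, and its part in the Id4 values was not tested. The exons of Id4 overlap 2 genes on the other strand (A330033J07Rik by 82 bases and Gm49291 by 171 bases), and the strand setting of the counts is not given in the sources used here.

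The counts of called genes among the 6 are set here beside the share called over all genes tested. In WT cells at 1 hpi 2 of 6 rose (Id1 and Id2), where 10.7% of all genes rose, and 1 fell (Tcf3), where 9.27% fell. At 3 hpi 2 of 6 were called in either direction against 23.5% of all genes, at 6 hpi 2 against 29.8%, and at 18 hpi 3 against 47.1%. At 120 hpi 1 rose (Id2), with 23.1% of all genes, and 3 fell (the E proteins), with 40.2%. In R35A cells 2 rose at 1 hpi (18.3% of all genes) and 1 fell (18.9%), 3 were called at 3 hpi (36.8%) and at 6 hpi (37.7%), 4 at 18 hpi (42.6%), and at 120 hpi 1 rose (24.2%) and 2 fell (39.0%). In R35K cells 2 rose at 1 hpi (15.5%) and 1 fell (17.4%), 3 were called at 3 hpi (32.7%) and at 6 hpi (34.1%), 4 at 18 hpi (39.0%), and at 120 hpi 1 rose (25.4%) and 3 fell (38.5%). From 1 to 18 hpi 1 of 6 was called in WT (25.2% of all genes) and 0 in R35A (5.62%) and R35K cells (9.27%), where 3 and 4 of the 6 had an adjusted p of at most 0.05 in edgeR but stayed under 1.5-fold. From 18 to 120 hpi 4 were called in WT (60.5%), 4 in R35A (53.9%) and 3 in R35K cells (53.3%), so in these late steps the share of the 6 was near that of all genes. It was also near in WT cells at 6 and 18 hpi, for the falls at 1 hpi in both mutants and at 120 hpi in R35A cells. No count of the 6 was tested against the share over all genes.

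Whether the mutants changed the 6 genes by another amount than WT was tested as a difference in the change from 0 hpi, each construct set against its own 0 hpi libraries, and all of these differences share the WT libraries. In the R35K differences the construct and the separate data set cannot be told apart. For R35A, Tcf3 fell further than in WT cells by 0.65 on the log2 scale at 1 hpi (SE 0.0559, adjusted p = 4.57e-14) and by 0.71 at 3 hpi (SE 0.0561, adjusted p = 3.15e-15), both called. At 6 hpi the Tcf3 difference was −0.50, under the threshold, and −0.62, a call, in a direct comparison of R35A with WT at that time. For R35K the Tcf3 differences of −0.48, −0.46 and −0.39 at 1, 3 and 6 hpi passed the adjusted p and missed 1.5-fold. So the Tcf3 gap between mutant and WT cells, open from 1 to 6 hpi, was 0.00 and 0.17 for R35A and 0.03 and −0.19 for R35K at 18 and 120 hpi. The R35A call at 1 hpi was lost without R35A 1 hpi replicate 2, where the difference was −0.58.

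For Id2 the difference was called with both mutants up to 18 hpi. The rise in R35A cells exceeded that in WT cells by 0.77 (SE 0.0585), 0.98 (SE 0.0588), 0.85 (SE 0.0586) and 0.82 (SE 0.0579) on the log2 scale at 1, 3, 6 and 18 hpi. The rise in R35K cells exceeded it by 1.12 (SE 0.0570), 1.16 (SE 0.0570), 1.19 (SE 0.0571) and 0.88 (SE 0.0565). The largest adjusted p among these 8 was 8.51e-16 by edgeR with Benjamini-Hochberg adjustment. At 120 hpi the sign turned, to −0.59 in R35A (SE 0.0574, adjusted p = 3.78e-12, called) and −0.24 in R35K cells (not called). The R35A call at 120 hpi lay at the edge of the threshold and was lost with no low-count filter (−0.54), in a direct comparison of R35A with WT at 120 hpi (−0.45), without WT 0 hpi replicate 2 (−0.58) and without R35A 120 hpi replicate 2 (−0.52).

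Tcf4 was lower in its change with R35A at 6 hpi (−0.62, SE 0.0505, adjusted p = 1.29e-14), from 156 and 156 CPM in R35A cells against 254 and 245 CPM in WT cells, with values of −0.52 at both 1 and 3 hpi that were under the threshold. The corresponding R35K differences were −0.47, −0.38 and −0.54 at 1, 3 and 6 hpi. Tcf12, Id1 and Id3 had no called difference at any time, and their largest were −0.23 (Tcf12, R35A at 120 hpi), −0.28 (Id1, R35K at 18 hpi) and 0.29 (Id3, R35A at 6 hpi). Per comparison, 2 of 6 genes were called for R35A minus WT at 1 hpi (14.0% of all genes), 3 hpi (13.0%) and 6 hpi (10.3%), and 1 at 18 hpi (8.36%) and 120 hpi (14.5%). For R35K minus WT 1 of 6 was called at 1 hpi (11.9%), 3 hpi (10.0%), 6 hpi (12.2%) and 18 hpi (13.3%), and 0 at 120 hpi (10.1%), where 4 of the 6 passed the adjusted p in edgeR. Without R35K 6 hpi replicate 2 the count at 6 hpi was 2, with Tcf4 added at −0.61. R35A and R35K were not compared with each other by a test.

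**Figure D3:**
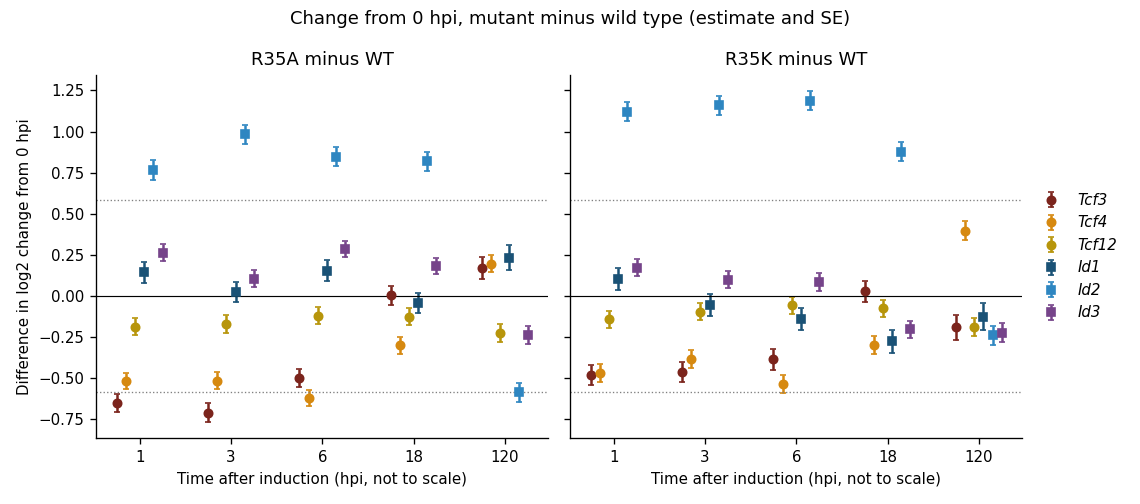
Difference between mutant and WT in the log2 change from 0 hpi (vertical axis) at 1 to 120 hpi (horizontal axis, not to scale), for R35A (left) and R35K (right), with the estimate as a point, its SE as a bar and the 1.5-fold threshold as dotted lines. Id2 lies above the upper line from 1 to 18 hpi in both panels (0.77 to 1.19), Tcf3 lies below the lower line for R35A at 1 and 3 hpi, and Tcf12, Id1 and Id3 lie between the lines.

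Levels of different genes were compared per length, as CPM per kilobase of merged exons (RPKM). In WT cells at 0 hpi Id3 led with 141 ± 3.98 RPKM (SD, n = 2), followed by Tcf3 with 96.7 ± 4.59, Id1 with 52.8 ± 3.85, Id2 with 43.8 ± 0.0412, Tcf12 with 15.7 ± 0.0258 and Tcf4 with 8.69 ± 0.163 RPKM. At 120 hpi Id2 led with 239 ± 0.190 RPKM, ahead of Id3 with 133 ± 4.25, Id1 with 38.7 ± 1.13 and Tcf3 with 14.8 ± 1.04 RPKM. The rank of Id1 against Id2 at 0 hpi depends on the length used, since with the longest transcript of each gene the values were 52.8 and 54.2 RPKM. So does that of Tcf3 against Tcf12 at 120 hpi, with 20.3 and 23.0 RPKM by the longest transcript. Tcf4 has 62 annotated transcripts and 27382 merged exon bases against 8577 in its longest transcript, so its level per length is the least certain of the 6.

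Summed per length, E proteins were lower and Id inhibitors higher at every time after 0 hpi than at 0 hpi. The sum of Tcf3, Tcf4 and Tcf12 in WT cells at 0, 1, 18 and 120 hpi was 121 ± 4.73, 69.9 ± 0.518, 45.1 ± 0.322 and 29.8 ± 0.990 RPKM (SD, n = 2). In R35A cells it was 113, 47.1, 41.0 and 29.5 RPKM at these times, and in R35K cells 121, 52.6, 43.6 and 28.6 RPKM. The sum of Id1, Id2 and Id3 in WT cells was 237 ± 7.86, 318 ± 3.14, 376 ± 1.58 and 410.1 ± 5.56 RPKM, against 251, 446, 499 and 339 RPKM in R35A and 247, 435, 416 and 352 RPKM in R35K cells. The makeup of both sums moved as well, Tcf3 giving 79.8% of the E protein sum in WT cells at 0 hpi and 49.7% at 120 hpi, and Id2 giving 18.5% of the Id sum at 0 hpi and 58.2%, 51.3% and 55.3% at 120 hpi in WT, R35A and R35K cells.

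The ratio of the E protein sum to the Id sum was 0.510 ± 0.00302 in WT, 0.451 ± 0.00627 in R35A and 0.490 ± 0.00899 in R35K cells at 0 hpi (SD, n = 2). At 1 hpi it was 0.220, 0.106 and 0.121, that is 2.32-, 4.27- and 4.05-fold lower. At 18 hpi it was 0.120, 0.0822 and 0.105, and at 120 hpi 0.0727, 0.0871 and 0.0814, 7.02-, 5.18- and 6.01-fold below 0 hpi. In R35A cells the ratio at 1 hpi, 0.107 and 0.104 in the 2 replicates, was below that of WT cells at 18 hpi, 0.119 and 0.121. These are RNA levels with no test, and say nothing of the proteins or of which dimers form. The samples also held fibroblast RNA, whose marker sum differed by time and construct. Its part in the 2 sums and in their ratio was not tested.

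**Figure D4:**
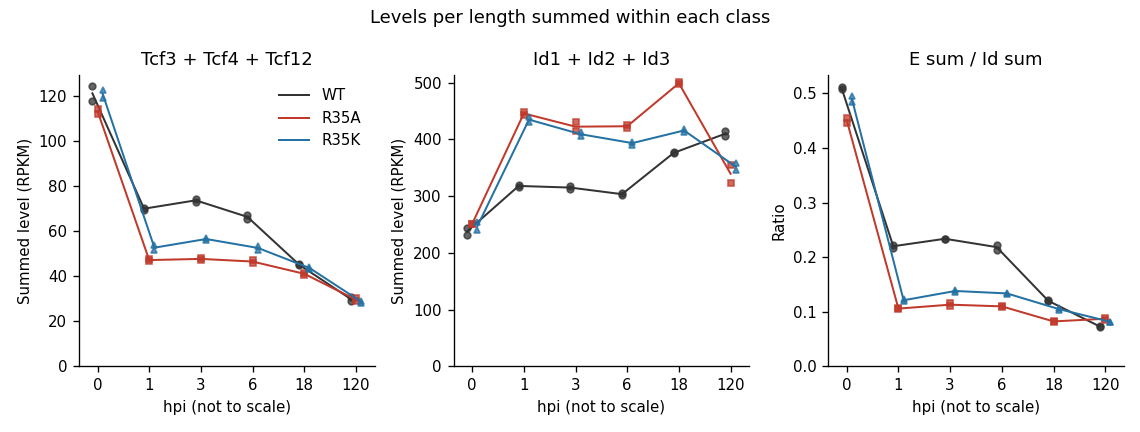
Sum of the levels per length of Tcf3, Tcf4 and Tcf12 (left, RPKM), of Id1, Id2 and Id3 (middle, RPKM) and the ratio of the first to the second (right), from 0, by time after induction (not to scale), with the replicates of WT, R35A and R35K cells as points and means as lines. The ratio goes from between 0.451 and 0.510 at 0 hpi to 0.220 in WT and to 0.106 and 0.121 in mutant cells at 1 hpi, and lies between 0.0727 and 0.0871 in all constructs at 120 hpi.

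The 13 B lineage genes known as E protein targets (Ebf1, Foxo1, Pax5, Rag1, Rag2, Dntt, Igll1, Vpreb1, Cd79a, Cd79b, Il7r, Blnk and Pou2af1) fell nearly as a block, and 5 of them are also the 5 B cell markers. In WT cells 12 of the 13 fell at 1 hpi, where 9.27% of all genes fell. The median log2 change was −0.97 against −0.01 over all genes, and the exception was Il7r, the receptor for IL-7, at −0.27. The median went on to −1.19, −1.53 and −3.31 at 3, 6 and 18 hpi. At the last of these times all 13 had fallen, where the median over all genes was 0.02 and 3937 of 16988 genes fell. In R35A cells 12 of 13 fell at 1 hpi with a median of −2.63, where 18.9% of all genes fell. In R35K cells 12 fell with a median of −1.83, where 17.4% of all genes fell, while Il7r rose by 1.00 on the log2 scale. Il7r is named because it was the exception, chosen after its values were seen.

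The 4 of these genes that changed most in WT cells at 1 hpi were Rag1, Pax5, Dntt and Pou2af1. Rag1, part of the recombinase that cuts antigen receptor genes, went from 82.9 and 81.7 CPM at 0 hpi to 16.8 and 16.0 CPM in WT cells at 1 hpi and from 76.4 and 75.9 CPM to 5.63 and 5.28 CPM in R35A cells. Pax5, the factor that holds cells in the B lineage, went from 849 and 867 CPM to 253 and 249.9 CPM in WT cells and from 789 and 797 CPM to 78.2 and 79.1 CPM in R35A cells. Dntt, which adds bases at antigen receptor joints, fell by 1.66 in WT, 3.77 in R35A and 2.62 in R35K cells at 1 hpi, and Pou2af1, a B cell coactivator, by 1.54, 3.01 and 2.23, on the log2 scale. The R35A minus WT difference at 1 hpi was −1.52 for Rag1, −1.61 for Pax5, −2.11 for Dntt and −1.48 for Pou2af1. Each was called and had the direction of the Tcf3 difference. The part of Tcf3 and the other E proteins in the changes of the list's genes was not tested.

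Over the list, 11 of 13 fell further in R35A than in WT cells at 1 hpi and 1 went the other way (Il7r, 0.71), with a median difference of −1.52 against −0.02 over all genes, and the count was 11 at 3 hpi, 10 at 6 hpi and 2 at 18 hpi. At each of these times 1 of the 13 was called upward. Of the 16988 genes tested, 1485, 1263, 1018 and 491 were called downward and 899, 939, 724 and 930 upward at 1, 3, 6 and 18 hpi. For R35K 10 fell further at 1 hpi, with a median of −0.66, then 6 at 3 hpi, 2 at 6 hpi and 0 at 18 hpi, while 1, 1, 2 and 3 of the 13 were called in the other direction at these times, and the median difference at 18 hpi was 0.26. Of the 17277 genes tested, 878, 669, 782 and 764 were called downward and 1181, 1060, 1324 and 1539 upward at these times. At 120 hpi 12 of 13 had fallen in each construct, where 40.2%, 39.0% and 38.5% of all genes fell in WT, R35A and R35K cells. Il7r had risen in WT cells (0.99). The median change was −8.41 in WT, −7.32 in R35A and −6.88 in R35K cells, or −7.27, −6.07 and −6.32 with the genes at 3 counts or fewer per library set to their bound. Rag1 in WT cells was among these, at least 298-fold lower than at 0 hpi.

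**Figure D5:**
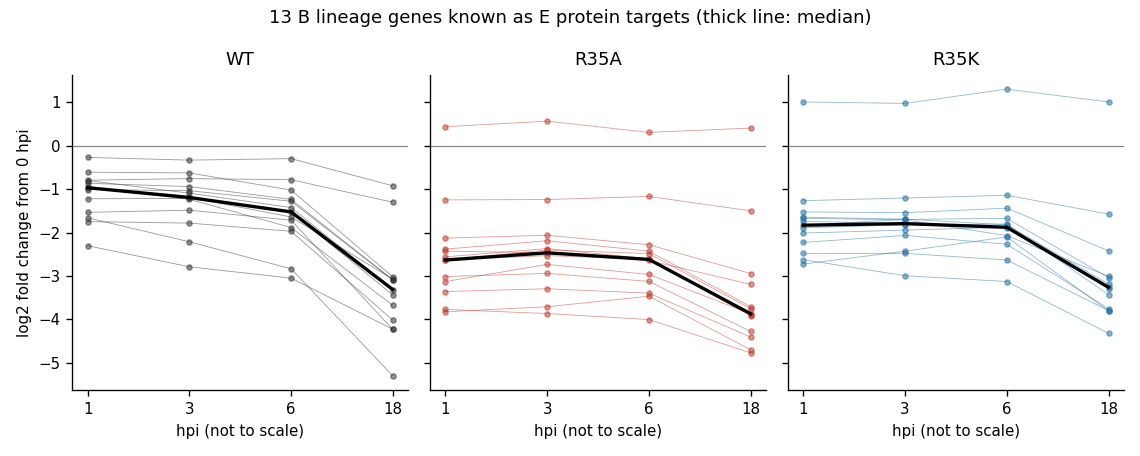
log2 fold change from 0 hpi (vertical axis) at 1 to 18 hpi (horizontal axis, not to scale) of the 13 B lineage genes known as E protein targets in WT, R35A and R35K cells, 1 thin line per gene and the median as a thick black line. The median at 1 hpi is −0.97 in WT, −2.63 in R35A and −1.83 in R35K cells, and the line on top in each panel is Il7r.

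Among 11 partners and cofactors of E proteins (Tal1, Tal2, Lyl1, Lmo1, Lmo2, Ldb1, Runx1t1, Cbfa2t2, Cbfa2t3, Ep300 and Crebbp), 10 were tested in the fit of WT and R35A cells and 11 in that of R35K cells. In WT cells 2 of 10 fell at 1 hpi, where 9.27% of all genes fell, with a median over the list of −0.09 against −0.01 over all genes. These were Cbfa2t3, a corepressor, from 34.5 and 34.7 CPM to 9.13 and 12.3 CPM, and Lyl1, a helix-loop-helix partner of E proteins, from 81.4 and 82.7 CPM to 28.3 and 28.4 CPM. At 120 hpi Lyl1 stood at 113 and 101 CPM, and Cbfa2t3 at 27.6 and 22.6 CPM. At 120 hpi in WT cells 2 of 10 had risen and 5 fallen, where 23.1% of all genes rose and 40.2% fell. Among the fallen was Runx1t1, a corepressor of the same family as Cbfa2t3, which was at least 25.0-fold lower. Tal1, a helix-loop-helix partner known from blood progenitors, was at least 24.2-fold higher than the floor at 0 hpi, at 4.51 and 5.64 CPM. In the mutants 2 (R35A) and 3 (R35K) of the list rose and 2 fell at 1 hpi, and at 120 hpi 2 and 3 had risen and 6 and 6 fallen. Over all genes 18.3% and 15.5% rose and 18.9% and 17.4% fell at 1 hpi, and 24.2% and 25.4% rose and 39.0% and 38.5% fell at 120 hpi, so the counts of the list at 1 hpi and of its risen genes at 120 hpi were near these shares. The R35A minus WT difference at 1 hpi was called for 2 of 10, both upward, where 14.0% of all genes were called in either direction, and the R35K minus WT difference for 2 of 11, both upward, where 11.9% were.

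The list of 20 BMP and TGF-beta receptors and SMAD genes held Bmpr1a, Bmpr1b, Bmpr2, Acvr1, Acvrl1, Eng, Tgfbr1, Tgfbr2, Smad1 to Smad7, Smad9, Smurf1, Smurf2, Ski and Skil. BMP and SMAD signalling is known to induce Id genes, but the list mixes activators and inhibitors of BMP and TGF-beta signalling. Its counts therefore do not measure that signal. In WT cells 2, 3, 4 and 11 of the 20 genes rose at 1, 3, 6 and 18 hpi, with medians of 0.31, 0.27, 0.42 and 0.72 on the log2 scale. At these times 0 fell, and at 120 hpi 2 had risen and 10 fallen (median −0.58, against −0.36 over all genes). Of the 16988 genes tested in WT cells, 1814 (10.7%), 2044, 2566 and 4057 rose at 1, 3, 6 and 18 hpi. At these times 1574, 1947, 2501 and 3937 fell, and at 120 hpi 23.1% rose and 40.2% fell. The WT counts of the list's risen genes at 1, 3 and 6 hpi were thus near the shares over all genes. In R35A cells 10 rose and 1 fell at 1 hpi, where 18.3% of all genes rose and 18.9% fell. At 120 hpi 2 rose and 12 fell, where 24.2% of all genes rose and 39.0% fell. In R35K cells 3 rose and 1 fell at 1 hpi, where 15.5% of all genes rose and 17.4% fell. At 120 hpi 2 rose and 9 fell, where 25.4% of all genes rose and 38.5% fell. The R35K counts of genes risen at 1 hpi and fallen at 120 hpi were near the shares over all genes. Bmpr1b, a BMP receptor, rose from 4.18 and 3.63 CPM to 8.02 and 7.56 CPM in WT cells at 1 hpi and had 0 counts in both WT libraries at 120 hpi, at least 14.2-fold lower than at 0 hpi. Bmpr2, the type II BMP receptor, rose from 104 and 105 CPM to 155 and 159.9 CPM. Bmpr1a, another BMP receptor, and Smad9, a SMAD of the BMP branch, fell by 3.69 and 2.59 on the log2 scale in WT cells at 120 hpi. Like Id1, this list had a higher median in WT cells at 18 hpi and a lower one at 120 hpi together with the fibroblast marker sum given above, and the part of fibroblast RNA in it was not tested.

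Over the 18 groups, the genes with a pattern of mean log2 CPM most like a member, among 12240 genes with at least 5 CPM in 1 group or more, were Hmgb1, Naa16 and 5730488B01Rik for Tcf3 (Pearson's r from 0.991 to 0.992), Zfp369, Amer1 and Zer1 for Tcf4 (0.953 to 0.956) and Ppm1d, Trp53i11 and Crtc1 for Tcf12 (0.987 to 0.990). For Id1 they were Map1lc3a, Ext1 and Arhgap24 (0.977 to 0.981), for Id2 3110043O21Rik, Dubr and Kctd6 (0.985 to 0.987) and for Id3 Jmjd6, Mt1 and Lsm11 (0.901 to 0.927). Among the members themselves r was −0.92 between Tcf3 and Id2, 0.89 between Tcf3 and Tcf12 and 0.85 between Id1 and Id3. These values describe 18 groups that share constructs and times, and are given with no test.

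Ordered by mean level over the 18 groups, Tcf3 ran from R35K cells at 120 hpi (52.3 CPM) to WT cells at 0 hpi (391 CPM), and 6 of its 17 pairs of neighbours in this order had overlapping replicates, among them WT and R35A at 120 hpi and R35A at 1, 3 and 6 hpi. Id2 ran from R35K cells at 0 hpi (103 CPM) to WT cells at 120 hpi (582 CPM) with 7 of 17 pairs overlapping, among them WT at 1, 3 and 6 hpi. Id1 ran from WT cells at 120 hpi (44.9 CPM) to R35A cells at 18 hpi (154 CPM), also with 7 pairs overlapping. For Tcf4, Tcf12 and Id3 10, 12 and 10 of the 17 pairs overlapped, so most neighbours in their orders were not separated by their 2 replicates. Overlapping pairs were not counted for other genes, so these counts describe the 6 genes alone.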

How the data were processed

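RNA-seq of 36 libraries was used, 2 replicates for each of 18 groups of construct and time, grouped by their sample titles, and 0 columns of per-sample values were left unused. Per the labels and the study's methods, the libraries came from a stranded mRNA kit with single-end reads, and the authors used FastQC for read quality, STAR 2.5.0a for alignment to mm10 and for counts per gene, and DESeq2 1.14.1 for normalization. The annotation release and the strand setting of the counts are not given in the sources used here. The deposited count tables hold raw counts of 40354 genes. The deposited log2 values cover 19067 genes and equal the log2 of the count divided by a size factor, plus 1, to within 6.87e-09. The members and the gene lists were chosen with earlier results of these data known, and 1 gene of the B cell marker list is not reported here and was left out of its sum.

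Counts were tested with edgeR 4.0.16 (filterByExpr, TMM, quasi-likelihood F test, Benjamini-Hochberg adjustment over all genes) in R 4.3.3, in 1 fit of the 24 WT and R35A libraries (16988 genes), 1 of the 12 R35K libraries (16434 genes) and 1 of all 36 for R35K minus WT (17277 genes). Changes were called at a log2 fold change of at least 0.5849625 in either direction (1.5-fold) and an adjusted p of at most 0.05. Where all libraries of a group had 3 counts or fewer, folds were computed against 3 counts per library, which covers counting error only. Positions and lengths come from GENCODE vM21, in which 39171 of the symbols were found, and promoters from RefSeq, which matched 4 members.

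The genes named were the 6 members, Id4, up to 4 genes per list with the largest called change in WT cells at 1 hpi or else at 120 hpi, and per member the 3 genes most like it in pattern. Replicate numbers were checked as a pairing by correlating replicate differences over 11903 genes, and the median r over 153 pairs of groups was −0.00426 with 3 pairs above 0.1, so replicates were taken as unpaired. All replicate pairs differed beyond sampling noise (highest chi-square p = 1.09e-19). The chi-square per gene ran from 1.11 to 13.24 over the groups, so the closest pair lay near counting noise. The pipeline was tested on simulated data. As alternatives, limma 3.58.1 on the log2 values, a Wald test and size factors from DESeq2 1.42.0, no low-count filter, unadjusted p, a 2-fold threshold, a replicate block, all libraries in 1 fit, a direct comparison of constructs, other lengths and leaving out each library were tried.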

Additional observations from a re-analysis of the deposited data

Results flagged for a closer look

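The results here are those in which a mutant and WT cells differed in their change from 0 hpi by edgeR's interaction test, at 1.5-fold or more and an adjusted p (Benjamini-Hochberg) of at most 0.05. For R35A minus WT on the log2 scale they were Tcf3 at 1 hpi (−0.65) and 3 hpi (−0.71), Tcf4 at 6 hpi (−0.62), and Id2 at 1 hpi (0.77), 3 hpi (0.98), 6 hpi (0.85), 18 hpi (0.82) and 120 hpi (−0.59). For R35K minus WT they were Id2 at 1 hpi (1.12), 3 hpi (1.16), 6 hpi (1.19) and 18 hpi (0.88). All of these share the WT libraries, so they are not independent of each other, and no explanation of them was tested. Groups of 2 libraries were too small to look for a single library apart from the rest.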

How the results depend on the processing

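Of the 71 called changes of the 6 genes over 31 comparisons, 0 changed sign under any alternative. With a threshold of 2-fold in place of 1.5-fold, the number of the 6 genes called was 1, 0, 1 and 2 in WT cells at 1, 3, 6 and 120 hpi (in place of 3, 2, 2 and 4), 2 (4) in R35K cells at 18 hpi, 0 (1) in WT cells from 1 to 18 hpi, 2 (4) in WT and 1 (4) in R35A cells from 18 to 120 hpi, 0 (2) for R35A minus WT at 1, 3 and 6 hpi and 0 (1) at 18 and 120 hpi, and 0 (1) for R35K minus WT at 18 hpi. For R35A minus WT at 120 hpi it was also 0 (1) with no low-count filter and in the direct comparison of constructs. Leaving out 1 library gave 1 to 2 called genes for R35A minus WT at 1 hpi, 0 to 1 at 120 hpi, and 1 to 2 for R35K minus WT at 6 hpi, where Tcf4 was added without R35K 6 hpi replicate 2. Listed here are only comparisons whose count changed by a factor above 1.5 or went to 0. The 2-fold threshold ended calls in others too. Examples are Id2 in WT (0.98) and Tcf4 in R35A cells (−0.65) at 18 hpi, and Id1 in R35A (0.99) and R35K cells (0.87) at 3 hpi. Apart from the 2-fold threshold, the alternatives and left-out libraries ended 18 calls and added 7, each on the same side of 0 as the value reported. With the longest transcript as length, the E to Id ratio was 0.653 and 0.118 in WT, 0.5846 and 0.142 in R35A and 0.630 and 0.139 in R35K cells at 0 and 120 hpi. The causes were not tested beyond what each alternative changes by construction. Numbering the replicates as a replicate block changed no count of called members (3 in WT cells at 1 hpi, with and without the block), and the numbers did not pair the samples. DESeq2's size factors moved the median log2 change of all genes by over 0.1 in WT cells at 18 hpi (0.115), at 120 hpi (0.150) and from 1 to 18 hpi (0.103), in R35A and R35K cells at 120 hpi (0.124 and 0.133) and for R35K minus WT at 18 hpi (−0.103), with the share of rises among all calls going from 39.0% to 52.4% in WT cells from 1 to 18 hpi and from 66.8% to 53.1% for R35K minus WT at 18 hpi. The coding length was not run.

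Depth was not the limit for the 6 genes, each with at least 460 counts in every library. With 2 replicates per group the tests borrow their spread from all genes, and a left-out library leaves 1 sample assumed to vary like the other groups.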
